A study of Homo sapiens with 48 samples.

Results

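The FOXO transcription factors and a group of genes tied to quiescence were followed in K562 cells treated with imatinib. The genes named were FOXO1, FOXO3, CITED2, TXNIP, BTG1, BTG2, CCNG2, SESN1, YPEL3 and YPEL5, and every probe set that the platform annotation gives to one of them was taken, whatever its values. The genes themselves were chosen with earlier results of these data known. Contrasts of them with all probe sets are therefore a description and not a test. Of the 10 genes, 8 had a probe set and BTG2 and YPEL3 were not analysed here, so that 8 genes of 11963 in all were described. They were read by 18 probe sets of 22215, of which 15 had 1 gene symbol and 3 were annotated to FOXO3 and FOXO3B together. FOXO3B is a near-identical copy of FOXO3, so the signal of those 3 probe sets could come from either locus.

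K562 is an established human chronic myeloid leukaemia line whose growth depends on the BCR-ABL1 fusion kinase, and imatinib inhibits that kinase. The drug-treated samples were given 1 micromolar imatinib for 24 hours and the controls were mock treated, with 24 samples of each. The samples carry 8 letters, A to H, called sets here, with 3 imatinib and 3 mock samples in each set. The labels do not say what a set marks or whether each sample is a culture of its own. The p-values therefore cover only the spread seen among the samples, which may be a technical one. RNA of imatinib samples was isolated with a column kit alone and RNA of mock samples with Trizol followed by that kit, in every set, so treatment and isolation cannot be told apart. Imatinib samples also received a reduced amount of spike control in every set, which runs with treatment in the same way. Descriptions name the drug for the imatinib samples, and their titles carry only Kin where those of mock samples carry Ctrl. Both were used, although the keywords of the imatinib samples read mock treated.

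FOXO factors are transcription factors that AKT phosphorylates and holds in the cytoplasm while growth factor or BCR-ABL1 signalling through PI3K is active. When that signalling drops they enter the nucleus and switch on genes of cell cycle exit, stress resistance and, in blood cells, apoptosis. FOXO3 and its targets are known for keeping blood stem cells quiescent. CITED2 is a transcription cofactor that binds CREBBP and EP300 and competes with HIF1A for them, and it is needed to maintain blood stem cells. BTG1 is an antiproliferative protein that recruits a deadenylase to messenger RNAs, and CCNG2 is an unconventional cyclin that slows the cell cycle. TXNIP binds thioredoxin and limits glucose uptake, SESN1 is a stress-induced inhibitor of mTORC1, and YPEL5 is a small zinc-binding protein found with a ubiquitin ligase complex.

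Levels are log2 units of the array signal. The mean level of an array differed between sets, so levels are given by set and changes are imatinib minus mock within sets. The combined change is over all 8 sets with the set as a factor, given with its standard error, and a probe set was called at a Benjamini-Hochberg adjusted p of 0.05 in limma, adjusted over all 22215 probe sets. In bulk RNA, a lower level from fewer of the cells expressing a gene and one from less of its RNA per cell cannot be told apart.

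All 18 probe sets were called in the combined comparison. Imatinib samples were higher for 15 of them, which read 7 genes, and lower for 3, which were the 3 probe sets of CCNG2. Of all probe sets 39.3% were called higher and 25.8% lower, 65.2% in either direction. With each array centred on its median the shares of all probe sets were 27.9% higher and 29.9% lower, and the 18 calls kept their directions. The median change was 0.69 over the 18 probe sets and 0.05 over all probe sets. CITED2 had the largest change (2.66), followed by YPEL5 (1.54), FOXO3 (1.13 by its brightest probe set), TXNIP (0.67), BTG1 (0.64), SESN1 (0.58) and FOXO1 (0.17), while CCNG2 was at -0.48. TXNIP and BTG1, and BTG1 and SESN1, differed in their change by less than the sum of their standard errors, which were 0.03 to 0.04.

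**Figure D1:**
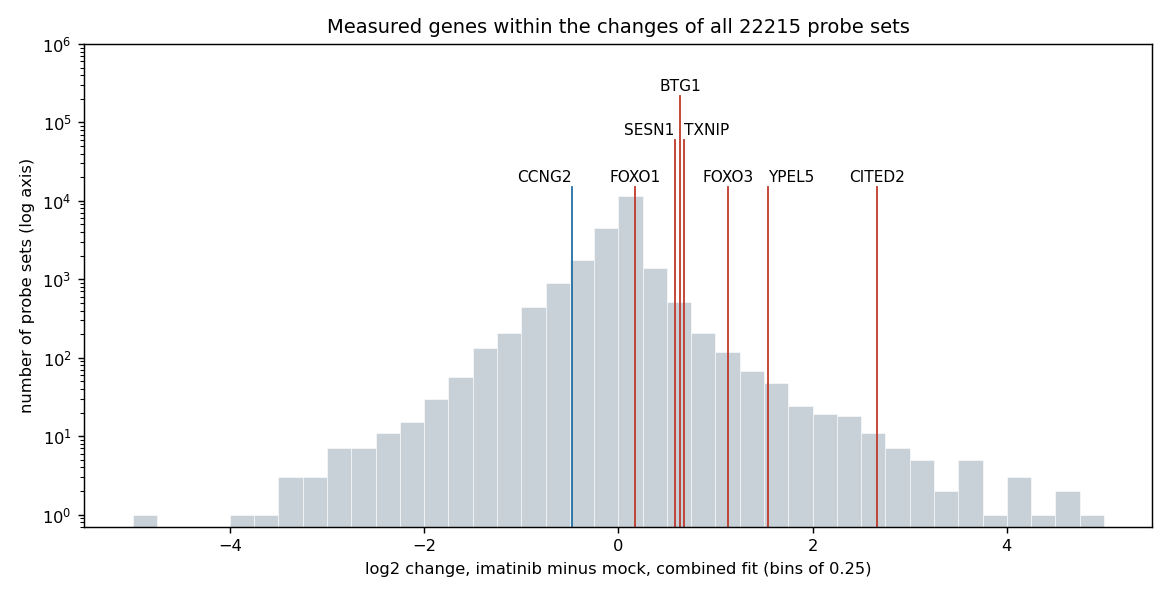
Changes of the measured genes, by their brightest probe set, as vertical lines over the histogram of the combined log2 changes (imatinib minus mock) of all 22215 probe sets. The x axis is the log2 change in bins of 0.25 and the y axis is the number of probe sets on a log axis. Red lines mark 7 genes higher after imatinib, up to 2.66 for CITED2, and the blue line marks CCNG2 at -0.48.

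Promoters are shown for 2 genes that were higher and whose window held the FOXO core letters, and for the gene with the largest rise beside the one gene that fell, which shared an E-box. Each window runs from 250 bases before to 50 bases after an annotated start, on the gene's strand, from RefSeq on GRCh38.p14, and capitals mark the match. TXNIP is read from the minus strand of chr1:145996530-145996829, with GTAAACA beginning 124 bases before the start. BTG1 is read from the minus strand of chr12:92145797-92146096, with the reverse complement TGTTTAC beginning 209 bases before the start. CITED2 is read from the minus strand of chr6:139374599-139374898, with CACGTG beginning 153 bases before the start. CCNG2 is read from the plus strand of chr4:77156957-77157256, with CACGTG beginning 30 bases before the start.
TXNIP: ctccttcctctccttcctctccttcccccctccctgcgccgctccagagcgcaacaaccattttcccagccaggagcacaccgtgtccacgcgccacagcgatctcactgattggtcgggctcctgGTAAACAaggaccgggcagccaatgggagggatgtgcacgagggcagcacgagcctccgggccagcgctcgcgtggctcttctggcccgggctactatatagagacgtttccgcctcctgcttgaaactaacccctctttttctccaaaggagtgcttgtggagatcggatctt
BTG1: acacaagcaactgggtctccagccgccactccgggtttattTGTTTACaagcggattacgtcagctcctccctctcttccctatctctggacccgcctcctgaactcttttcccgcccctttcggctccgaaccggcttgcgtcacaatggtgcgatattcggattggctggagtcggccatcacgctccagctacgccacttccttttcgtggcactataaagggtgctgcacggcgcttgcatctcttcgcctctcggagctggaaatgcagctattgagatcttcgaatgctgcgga
CITED2: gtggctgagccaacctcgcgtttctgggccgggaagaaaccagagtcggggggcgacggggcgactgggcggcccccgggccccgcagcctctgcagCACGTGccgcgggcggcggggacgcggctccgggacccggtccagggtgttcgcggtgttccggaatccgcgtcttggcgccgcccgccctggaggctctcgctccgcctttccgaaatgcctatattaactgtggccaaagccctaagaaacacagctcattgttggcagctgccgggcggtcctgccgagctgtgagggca
CCNG2: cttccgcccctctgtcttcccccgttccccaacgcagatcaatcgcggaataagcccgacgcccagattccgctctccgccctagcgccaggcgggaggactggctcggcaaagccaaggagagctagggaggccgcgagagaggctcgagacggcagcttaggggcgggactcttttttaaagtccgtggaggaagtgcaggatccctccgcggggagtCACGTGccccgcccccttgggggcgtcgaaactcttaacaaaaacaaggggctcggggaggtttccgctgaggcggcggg

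The 10 genes had 18 such windows, since several have more than 1 annotated start, and 5 motifs were searched on both strands. The FOXO letters GTAAACA occurred in 3 of the 18 windows, 1 each of TXNIP, BTG1 and YPEL3, and in 3.42% of the 35116 windows of all genes. The E-box CACGTG, read by MYC family factors, occurred in 2, against 7.26% of all windows. TXNIP has 2 annotated starts and CITED2 has 3, and the windows of their other starts held none of the 5 motifs. Only exact matches were counted, so a site that differs from the searched letters was not seen, in the TXNIP windows or any other. The STAT letters TTCNNNGAA (7.66% of all windows), the GATA letters AGATAA (10.3%) and the CRE letters TGACGTCA (1.85%) occurred in none of the 18. FOXO1, FOXO3, CITED2, YPEL5 and SESN1 were higher after imatinib without GTAAACA in these windows. A match is a description of the letters and says nothing of binding.

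FOXO3, the FOXO factor most often named in quiescence of blood stem cells, was higher in imatinib samples than in mock samples in each set. The probe set annotated to FOXO3 alone (204131_s_at) averaged 8.67 in imatinib samples and 7.54 in mock samples, a change of 1.13 ± 0.03 (SE, 24 samples of each), or 2.19-fold (adjusted p = 1.44e-32). Of all probe sets 1.20% had a larger change. In set A the imatinib samples read 8.13, 8.09 and 8.22 and the mock samples 7.03, 6.92 and 7.06.
Set B gave 9.54, 9.56 and 9.42 with imatinib and 8.56, 8.44 and 8.53 with mock, the smallest change of the 8 sets (0.997 ± 0.06). In set C, which had the largest (1.28 ± 0.07), imatinib samples read 8.65, 8.44 and 8.54 and mock samples 7.29, 7.30 and 7.20. The imatinib values lay above the mock values without overlap in both. Set D held 8.42, 8.39 and 8.15 in imatinib samples and 7.22, 7.25 and 7.12 in mock samples. Set E held 8.18, 7.99 and 7.86 in imatinib samples and 6.92, 7.06 and 6.91 in mock samples. The F samples read 9.08, 8.65 and 8.70 after imatinib and 7.75, 7.44 and 7.59 after mock treatment. The first imatinib sample of set F was the high one, and its groups too were apart. For set G the values were 9.52, 9.42 and 9.44 with imatinib and 8.16, 8.28 and 8.23 with mock. For set H they were 8.57, 8.53 and 8.60 with imatinib and 7.53, 7.50 and 7.63 with mock. Imatinib and mock samples thus overlapped in none of the 8 sets, and each set alone was called.

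The 3 probe sets shared with FOXO3B were also called higher, by 0.84 ± 0.04 (210655_s_at), 0.93 ± 0.06 (204132_s_at) and 0.29 ± 0.05 (217399_s_at). The first averaged 8.22 in imatinib samples and 7.38 in mock samples, and the second 7.16 in imatinib samples and 6.23 in mock samples. Both were called in all 8 sets alone. The third averaged 6.59 in imatinib samples and 6.30 in mock samples and was called in sets A, B, C and G alone. In set F it read 6.01, 6.41 and 6.44 with imatinib and 6.08, 6.24 and 6.41 with mock, and the groups overlapped. In set C it read 7.09, 7.03 and 7.39 with imatinib and 6.63, 6.43 and 6.69 with mock, without overlap. The FOXO3 probe sets therefore gave changes of unequal size, and the smallest was on a shared probe set.

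FOXO1, the FOXO factor best known from insulin signalling and B cells, changed little. Its brighter probe set (202723_s_at) averaged 5.997 in imatinib samples and 5.83 in mock samples, a change of 0.17 ± 0.05 (adjusted p = 0.00314), or 1.12-fold. Without replicate 2 of every group that change was 0.09 and was not called (adjusted p = 0.25), so the call rested on those samples. Both FOXO1 probe sets had mean levels below the median of all probe sets. Set C was highest, with 5.89, 5.73 and 5.81 in imatinib samples and 5.50, 5.28 and 5.41 in mock samples, without overlap. Set H ran the other way, with 6.83, 6.66 and 6.58 in imatinib samples and 6.78, 6.71 and 6.92 in mock samples, which overlapped (change -0.12 ± 0.09). This was the 1 probe set of the 18 whose sign was not the same in all 8 sets. It was called higher in sets B, C, D and G alone.

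The other FOXO1 probe set (202724_s_at) averaged 5.72 in imatinib samples and 5.45 in mock samples, a change of 0.27 ± 0.04 (adjusted p = 6.82e-08). It was called higher in sets A, B, G and H alone, of which B and G were shared with the first probe set. In set G it read 6.61, 6.65 and 6.59 with imatinib and 5.77, 6.21 and 5.91 with mock, a change of 0.65 ± 0.12 with no overlap. In set C it read 5.18, 5.23 and 5.31 with imatinib and 5.22, 5.17 and 5.22 with mock, a change of 0.03 ± 0.06 with overlap. Set C was thus the highest set for one FOXO1 probe set and the lowest for the other. In set A, where the change was 0.38 ± 0.08, imatinib samples read 5.19, 5.31 and 5.25 and mock samples 4.98, 4.84 and 4.78. Its change differed between sets in the test of the set-by-treatment terms (adjusted p = 0.0258).

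CITED2, the cofactor that competes with HIF1A for CREBBP and EP300, had the largest change of the group, and its probe sets matched each other. Probe set 209357_at averaged 9.65 in imatinib samples and 6.99 in mock samples, a change of 2.66 ± 0.06 or 6.32-fold (adjusted p = 2.69e-36). Of all probe sets 0.135% had a larger change. The second probe set, 207980_s_at, averaged 9.13 in imatinib samples and 6.49 in mock samples, a change of 2.65 ± 0.06.
Set A read 9.81, 9.997 and 10.002 in imatinib samples and 7.20, 7.01 and 7.42 in mock samples by 209357_at. Set B read 10.71, 10.81 and 10.89 in imatinib samples and 8.46, 8.34 and 8.36 in mock samples. Set C read 9.004, 9.44 and 9.05 in imatinib samples and 6.18, 6.33 and 6.27 in mock samples. In all 3 sets every imatinib sample was above every mock sample. Set D read 9.84, 9.98 and 9.83 with imatinib and 7.39, 6.98 and 7.39 with mock. Set E read 8.51, 7.72 and 7.95 with imatinib and 5.86, 5.51 and 5.69 with mock, the smallest change (2.37 ± 0.18). Set F read 8.73, 8.73 and 8.96 with imatinib and 5.96, 6.21 and 5.32 with mock, the largest change (2.98 ± 0.20). These sets had no overlap either, and the standard errors of sets E and F were the widest of the 8. Set G read 10.33, 10.24 and 10.27 in imatinib samples and 7.68, 8.16 and 7.49 in mock samples. Set H read 10.09, 10.24 and 10.37 in imatinib samples and 7.50, 7.58 and 7.37 in mock samples. The test of the set-by-treatment terms did not call a difference between sets (adjusted p = 0.315), which does not show that the sets had the same change.

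YPEL5 had the next largest change. It averaged 9.33 in imatinib samples and 7.79 in mock samples, a change of 1.54 ± 0.04 or 2.90-fold (adjusted p = 4.60e-33). Of all probe sets 0.621% changed by more. In set F, the highest, imatinib samples read 9.49, 8.96 and 9.11 and mock samples 7.68, 7.58 and 7.20 (change 1.70 ± 0.16). Set E was the lowest at 1.27 ± 0.14, with 8.52, 7.89 and 8.25 in imatinib samples and 6.99, 6.88 and 6.98 in mock samples. Groups did not overlap in these or in the other 6 sets, whose changes lay between these values. In set E the first imatinib sample was the highest and the second the lowest for YPEL5, CITED2 and BTG1 alike.

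TXNIP, which restrains thioredoxin and glucose uptake, was higher by 0.67 ± 0.03 (201010_s_at), 0.77 ± 0.03 (201009_s_at) and 0.70 ± 0.04 (201008_s_at). The brightest averaged 11.99 in imatinib samples and 11.32 in mock samples, a 1.60-fold difference (adjusted p = 2.14e-27). Set F was highest, with 11.76, 11.72 and 11.86 in imatinib samples and 11.11, 11.07 and 10.81 in mock samples (change 0.78 ± 0.10). Set G was lowest, with 12.63, 12.58 and 12.56 in imatinib samples and 12.06, 11.95 and 12.01 in mock samples (change 0.59 ± 0.08). Each of the 3 probe sets was called in all 8 sets alone with no overlap, and their changes by set ran from 0.59 to 0.89.

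BTG1, the antiproliferative gene, averaged 9.30 in imatinib samples and 8.66 in mock samples by 200920_s_at, a change of 0.64 ± 0.04 or 1.56-fold (adjusted p = 1.02e-18). This probe set was called in all 8 sets alone with no overlap, with changes from 0.53 in set C to 0.81 in set F. In set F imatinib samples read 9.30, 9.35 and 9.23 and mock samples 8.53, 8.30 and 8.62. The second probe set, 200921_s_at, averaged 9.22 in imatinib samples and 8.46 in mock samples, a change of 0.75 ± 0.07. It overlapped in set E, with 8.29, 7.14 and 7.86 in imatinib samples and 7.46, 7.28 and 7.30 in mock samples, and was not called there (change 0.42 ± 0.22). In the other 7 sets it was called with no overlap.

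SESN1, a sestrin known as a target of p53 and of FOXO factors, was read by 1 probe set (218346_s_at). It averaged 8.10 in imatinib samples and 7.52 in mock samples, a change of 0.58 ± 0.03 or 1.49-fold (adjusted p = 2.30e-21). Set H was highest with 8.59, 8.69 and 8.61 in imatinib samples and 7.96, 7.93 and 8.03 in mock samples (change 0.66 ± 0.07). Set B was lowest with 8.74, 8.77 and 8.82 in imatinib samples and 8.30, 8.34 and 8.37 in mock samples (change 0.44 ± 0.05). It was called in all 8 sets alone, with no overlap in any.

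CCNG2, the unconventional cyclin usually described as induced by FOXO factors, was the gene that fell. Its brightest probe set (211559_s_at) averaged 6.42 in imatinib samples and 6.90 in mock samples, a change of -0.48 ± 0.04 (adjusted p = 3.14e-13) that leaves mock samples 1.39-fold higher. The other probe sets changed by -0.56 ± 0.04 (202769_at) and -0.38 ± 0.05 (202770_s_at), both with mean levels below the median of all probe sets. By 211559_s_at, set B read 7.34, 7.40 and 7.28 in imatinib samples and 8.04, 8.10 and 8.06 in mock samples, the largest fall (-0.73 ± 0.06). Set E read 5.35, 5.39 and 5.49 in imatinib samples and 5.58, 5.40 and 5.84 in mock samples, the smallest (-0.20 ± 0.12). The groups overlapped in set E and in no other set. Set A read 5.30, 5.33 and 5.42 with imatinib and 5.45, 5.69 and 5.94 with mock. Set C read 5.70, 6.06 and 5.75 with imatinib and 6.41, 6.51 and 6.37 with mock. Set D read 6.32, 6.43 and 6.52 with imatinib and 6.63, 6.88 and 7.22 with mock. All of these imatinib values were below the mock values of their set. Set F read 6.50, 6.30 and 6.46 with imatinib and 6.96, 6.95 and 6.76 with mock. Set G read 7.67, 7.59 and 7.96 with imatinib and 8.35, 8.46 and 8.21 with mock. Set H read 6.80, 6.996 and 6.77 with imatinib and 7.18, 7.28 and 7.37 with mock.

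Called lower in a set alone were 211559_s_at in 7 sets, 202769_at in 6 and 202770_s_at in 5, and none of the 3 was called in set E. The change of 202770_s_at differed between sets (adjusted p = 0.0201 for the set-by-treatment terms). In set G it read 7.24, 6.92 and 7.18 in imatinib samples and 7.83, 8.25 and 7.71 in mock samples (change -0.82 ± 0.15). In set E it read 3.89, 3.99 and 4.19 in imatinib samples and 4.18, 4.004 and 3.99 in mock samples (change -0.03 ± 0.11), with overlap.

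**Figure D2:**
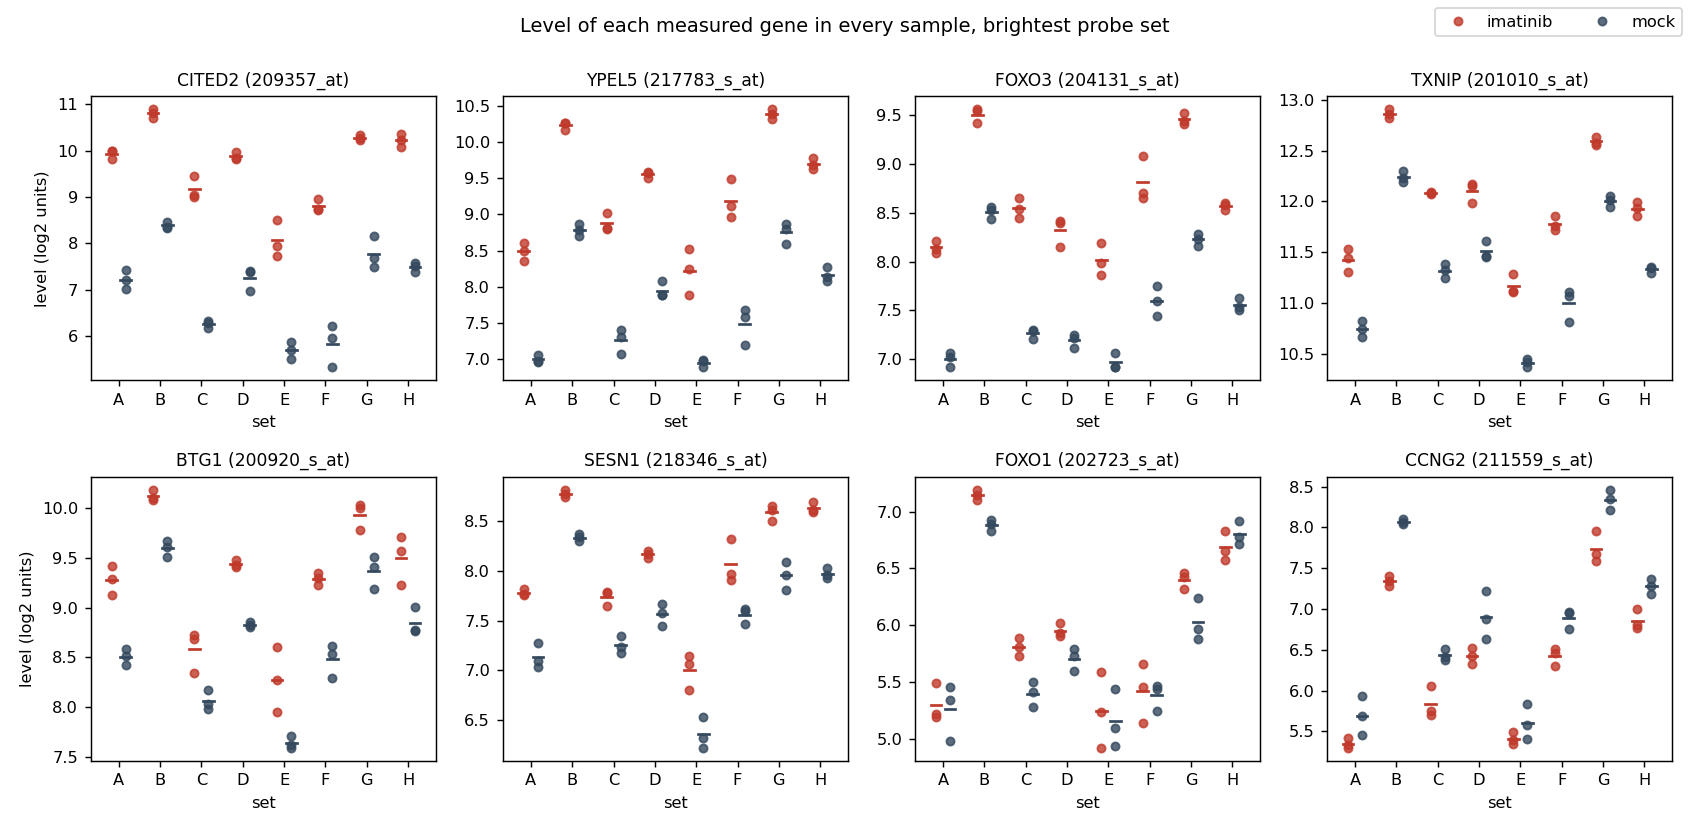
Log2 level of each measured gene in every sample, by its brightest probe set, with sets A to H on the x axis. Red points on the left of each set are 3 imatinib samples, dark points on the right are 3 mock samples, and bars are their means. The groups lie apart in all 8 sets for CITED2, YPEL5, FOXO3, TXNIP, BTG1 and SESN1, overlap in some sets for FOXO1, and lie apart with imatinib below mock in 7 sets for CCNG2.

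Because the genes were chosen with earlier results of these data known, the shares below only describe the group. Across sets, 11 of the 18 probe sets were called higher in every set alone, against 3.94% of all probe sets. The same number had imatinib above mock with no overlap in every set, against 5.43% of all probe sets. They read 6 genes, CITED2, YPEL5, FOXO3, TXNIP, BTG1 and SESN1. None was called lower in every set, where 6.57% of all probe sets were, and none lay below mock without overlap in every set, where 8.6% did. The sign was the same in all 8 sets for 17 of 18, while 19.8% of all probe sets had a change above 0 and 19.2% below 0 in every set. Between 11 probe sets in set E and 15 in sets B and G were called higher in a set alone, where the shares of all probe sets called higher were 7.24% in E, 27.8% in B and 11.5% in G. The other sets called 14 higher in A (13.6% of all), 14 in C (18.9%), 13 in D (20.9%), 12 in F (7%) and 13 in H (12.3%). Called lower were 3 in A (14.7% of all), B (19.9%), C (20.1%) and D (18%), and 2 in F (9.47%), G (16%) and H (11.8%). In set E limma called 0 lower (12.1% of all), and 1 had an unadjusted p under 0.05, 202769_at (adjusted p = 0.056).

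Of the 18 probe sets 2 had a change that differed between sets, against 7.2% of all probe sets. None of the 4 that changed at least 2-fold, both of CITED2, that of YPEL5 and the FOXO3 probe set 204131_s_at, was among them, where 42.5% of the 807 probe sets with such a change were; limma gave none of the 4 an unadjusted p under 0.05 either. At least 2-fold higher were 1.49% of all probe sets. Over the 48 samples, after removal of each group mean, probe sets of the same gene correlated with r between -0.26 and 0.55; these share the array and its preparation, and the values are a description.

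**Figure D3:**
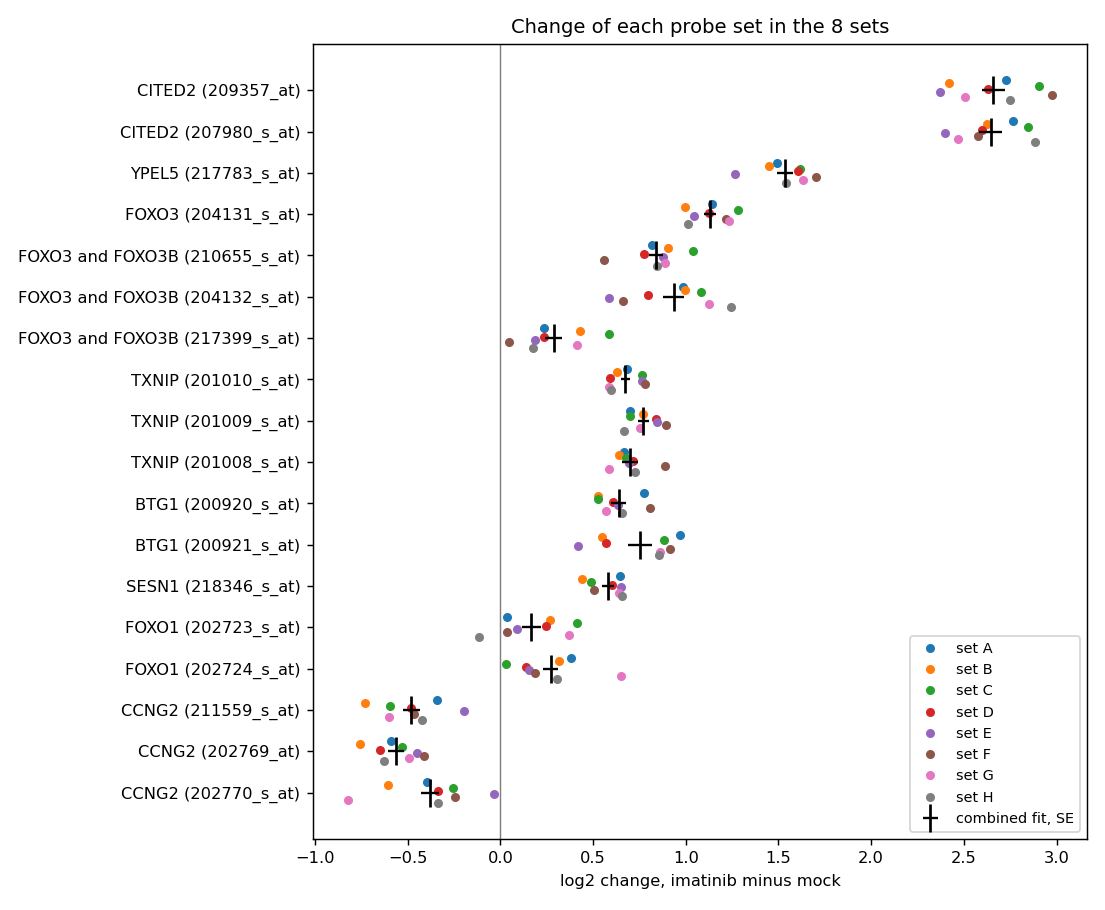
Log2 change (imatinib minus mock, x axis) of the 18 probe sets in each of sets A to H as coloured points, with the combined change and its standard error as black crosses. All sets are above 0 for CITED2, YPEL5, FOXO3, TXNIP, BTG1 and SESN1 and below 0 for CCNG2, while FOXO1 by 202723_s_at runs from -0.12 in set H to 0.41 in set C.

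The wider pathways were read from lists of genes, each gene by its brightest probe set, where 41.6% of all 11963 genes were called higher and 27.1% lower. Of the FOXO family and its regulators 16 of 21 were measured, 8 higher and 6 lower, with a median change of 0.01 that turned to -0.03, with 6 higher and 8 lower, when arrays were centred. PIK3R1, a regulatory subunit of PI3K upstream of AKT, averaged 8.33 in imatinib samples and 6.28 in mock samples, a change of 2.05 ± 0.06. Its other 2 probe sets changed by 0.53 to 0.68. CREBBP, the acetyltransferase that CITED2 and FOXO factors bind, changed by 0.73 ± 0.05 and by 0.26 on its other probe set. AKT2 changed by 0.60 ± 0.05, and its other 2 probe sets by 0.15 and 0.45. The other AKT kinase on the list, AKT1, was lower by this test (-0.28 ± 0.04), a gene named after its value was seen.

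Of 40 known FOXO targets 34 were measured, 17 higher and 7 lower, with a median of 0.07 against 0.05 over all genes, which is near the background. With arrays centred 15 were higher and 9 lower, with a median of 0.03. CDKN1C, an inhibitor of cyclin-dependent kinases, averaged 9.80 in imatinib samples and 8.22 in mock samples (change 1.58 ± 0.04). CAT, the catalase gene, averaged 12.15 in imatinib samples and 10.72 in mock samples (change 1.43 ± 0.03). Other probe sets of these genes changed by 0.08 to 1.68 for CDKN1C and by 0.19 to 1.57 for CAT. CCND2, a cyclin that FOXO factors repress, averaged 7.22 in imatinib samples and 9.05 in mock samples (change -1.84 ± 0.05). Its other 2 probe sets changed by -1.22 and -0.64. CDKN1B, the p27 inhibitor, rose by 0.72 ± 0.08, while PMAIP1, a pro-apoptotic target, changed by -1.98 ± 0.06, and both were named after their values were seen. The other PMAIP1 probe set changed by -1.20.

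Paralogs and partners of the described genes had 18 of 27 measured, 9 higher and 6 lower, with a median of 0.09, and 7 higher and 8 lower when arrays were centred. PRMT1, the arginine methyltransferase that BTG1 binds, averaged 9.45 in imatinib samples and 10.82 in mock samples (change -1.37 ± 0.03). TXNRD1, which reduces the thioredoxin that TXNIP binds, averaged 9.19 in imatinib samples and 10.50 in mock samples (change -1.31 ± 0.04). YPEL1 rose by 0.68 ± 0.04, as YPEL5 did. Of the BTG and TOB family on the list, BTG3 changed by -0.62 ± 0.04, with its other 2 probe sets at -0.65 and -0.03, and TOB1 by -0.48 ± 0.06. TOB2, of the same family, rose by 0.25 ± 0.05, so these relatives of BTG1 did not share a direction. All 3 were named after their values were seen.

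Of 29 genes of quiescence and cell cycle exit 23 were measured, 11 higher and 4 lower, with a median of 0.07. The share called higher was 47.8%, near the 41.6% of all genes. With arrays centred 8 were higher and 4 lower, with a median of 0.03. TSC22D1, a leucine zipper regulator, averaged 9.98 in imatinib samples and 6.87 in mock samples (change 3.10 ± 0.06), and HES1, a NOTCH target, averaged 5.56 in imatinib samples and 7.52 in mock samples (change -1.96 ± 0.10), though 1 of the other 2 HES1 probe sets changed by only 0.03. Of 26 proliferation genes, all measured, 8 were higher and 16 lower, with a median of -0.17. MYC fell by 1.36 ± 0.04 on the log2 scale, at 9.02 in imatinib samples and 10.38 in mock samples, while CCND3, a D-type cyclin, rose by 1.10 ± 0.03. Under centred arrays 17 of the proliferation genes were lower and under quantile normalization 14.

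**Figure D4:**
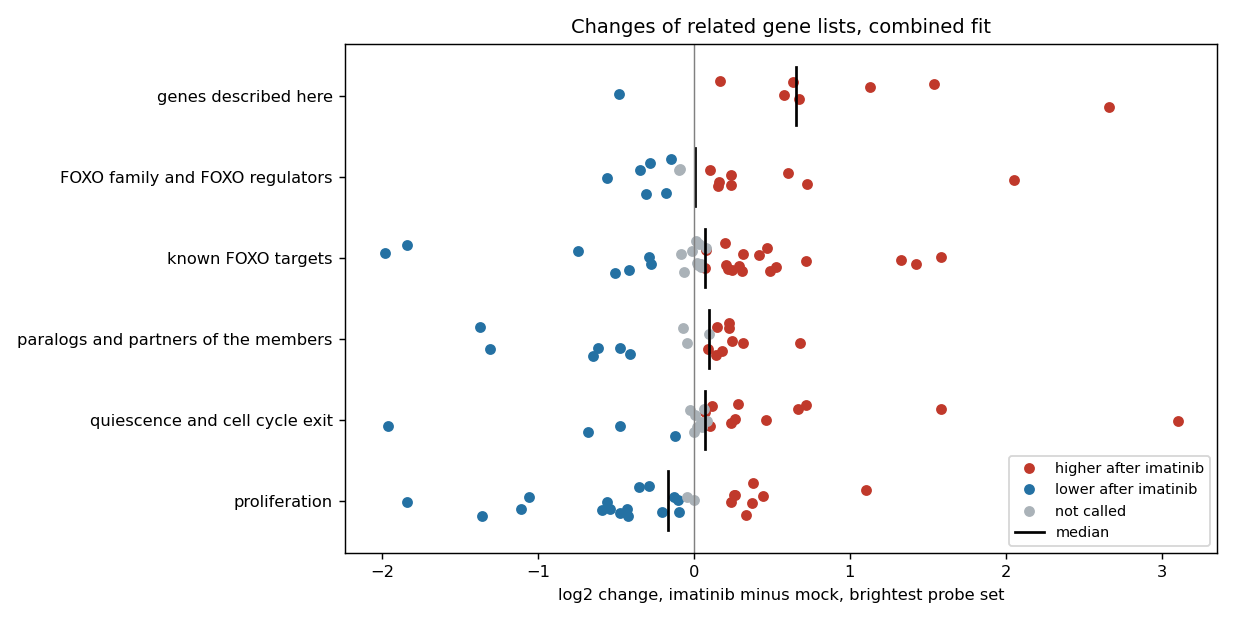
Log2 change (imatinib minus mock, x axis) of each gene of the lists, by its brightest probe set, with called genes in red or blue, uncalled genes in grey and a bar at each list's median. The described genes have a median of 0.66, while FOXO targets lie at 0.07 and proliferation genes at -0.17. Genes and lists were chosen with earlier results of these data known.

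Of the 7 measured K562 and erythroid markers all 7 had mean levels in the upper part of the array, above its median, and all 7 were higher after imatinib, with a median of 1.04, including BCR (0.14) and ABL1 (0.32). T-cell, B-cell, monocyte and granulocyte, and fibroblast and epithelial markers had median changes between 0.04 and 0.12. For the counts that follow, 41.6% of all genes were called higher and 27.1% lower by their brightest probe set. Called higher were 3 of 7 T-cell markers, 4 of 5 B-cell markers, 1 of 7 monocyte and granulocyte markers and 2 of 6 fibroblast and epithelial markers. Called lower were 1 T-cell, 0 B-cell, 1 monocyte and granulocyte and 1 fibroblast and epithelial marker. The first was CD3D, which averaged 6.39 in imatinib samples and 8.12 in mock samples, a change of -1.73 ± 0.08 and below 0 in all 8 sets. The others were LYZ (-0.44 ± 0.04) and COL1A2 (-0.14 ± 0.04). The largest rise among these markers was that of CD7 (0.41 ± 0.04). With arrays centred the B-cell count called higher was 1 and the monocyte and granulocyte count 0. Mean levels at or above the median were also found for 4 of 7 T-cell, 3 of 5 B-cell and 5 of 6 fibroblast and epithelial markers. A level above the median was therefore not particular to the K562 and erythroid markers. All 7 monocyte and granulocyte markers had mean levels under the array's median. Their part in the changes above was not tested.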

How the data were processed

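RNA of 48 samples was measured on Affymetrix arrays. The authors deposited 1 log2 value per probe set and sample for 22283 probe sets; the log2 base was inferred from their range. How background, probe summary and normalization were handled is not given in the sources used here. Arrays of a set had nearly equal means. The 68 control probe sets were left out of tests. Values were used as deposited and names came from the platform annotation, which gave 19065 probe sets one symbol, 1043 several and 2107 none.

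Changes were fitted with limma 3.58.1 in R 4.3.3 (lmFit, eBayes), with set and treatment as factors, for each set alone, and with set-by-treatment terms, and Benjamini-Hochberg adjusted over 22215 probe sets. Genes were represented by the brightest probe set of one symbol. Promoters were read from RefSeq tables of GRCh38.p14. Named genes were the 10 members and up to 3 of each list with the smallest p among called genes at or above the median level. The members and the lists were chosen with earlier results of these data known. Fits were also run on simulated data with planted changes and independent noise in every value. That run cannot cover noise shared between probe sets or samples, or the RNA isolation that runs with treatment. Per the labels, imatinib samples also received a reduced amount of spike control. Tools included Python 3.11.15 and matplotlib 3.10.9. Precision is limited by how many arrays there are.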

Additional observations from a re-analysis of the deposited data

Results flagged for a closer look

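The change of FOXO1 by 202724_s_at differed between sets in the test of the set-by-treatment terms (adjusted p = 0.0258), from 0.03 ± 0.06 in set C to 0.65 ± 0.12 in set G. Without set C, without set G, or without replicates 1 or 3 the test was not called (adjusted p = 0.13, 0.24, 0.17 and 0.71).

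The change of CCNG2 by 202770_s_at also differed between sets (adjusted p = 0.0201), from -0.82 ± 0.15 in set G to -0.03 ± 0.11 in set E. Without set E, without set G, or without replicates 1, 2 or 3 the test was not called (adjusted p = 0.068, 0.12, 0.098, 0.12 and 0.28). Over all samples the mean level of both probe sets was below the array's median, but in set G the CCNG2 probe set lay at the percentiles 53.7, 47.4 and 52.0 of its array in imatinib samples and 64.3, 68.2 and 61.9 in mock samples. In set E, the other end of the contrast, that probe set had its lowest mean levels, 4.02 in imatinib samples and 4.06 in mock samples. Its lowest percentile over all samples was 13.8. Whether the low level limits the change seen in set E was not tested.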

How the results depend on the processing

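Of the 18 member probe sets 17 kept their direction and call under all 15 or 16 alternatives, and FOXO1 by 202723_s_at lost its call without replicate 2 only (0.09, adjusted p = 0.25). With probe sets at or above the median level alone, 11108 were tested, 1 member was called lower, since 2 CCNG2 probe sets and both FOXO1 probe sets were not tested, and 9019 probe sets were called in all, 4535 of them higher. Set-by-treatment terms called 2 members and 7.2% of all probe sets. Without replicates 1, 2 and 3 they called 0, 1 and 0 members and 2.48%, 7.37% and 1.11% of all; without sets C, E and G, 1, 1 and 0 members and 3.18%, 7.86% and 5.21% of all. Called over all probe sets were 27.9% higher and 29.9% lower with centred arrays, and 33.3% and 25.9% with quantile normalization. With the replicate block all 18 were called, 15 higher and 3 lower, and 14063 probe sets in all. Whether the numbers pair the samples was not settled. Of 24 same-number pairs 7 had r over 0.1, and the median was 0.02, against -0.03 for different numbers. With 3 samples in a group these values can neither show nor exclude pairing. In set E 7371 probe sets were called without imatinib replicate 1, against 4307, and in set C 5324 without mock replicate 2 and 5450 without mock replicate 3, against 8654; the cause was not tested. The list counts under centring and quantile normalization were added after seeing the data. Mean levels below the median of the array, for FOXO1 and for CCNG2 by 202769_at and 202770_s_at, limit those values, as no background signal was used here. Treatment, RNA isolation and the amount of spike control cannot be told apart in any setting.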
